A study of Rattus norvegicus with 24 samples.

Results

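Formaldehyde breathed through the nose was set against room air in circulating white blood cells of rats, and the effect described here is the average of the effects after 7 and 28 days. It rests on 12 white blood cell arrays of a series of 24, chosen by their titles, with 6 arrays from exposed rats against 6 from control rats and the day as a block. The other 12 arrays are from nasal epithelium. Male Fischer rats, about 8 weeks old at the start, breathed 2 ppm formaldehyde, vaporized from [13CD2]-paraformaldehyde, in tubes that expose only the nose, 6 hours daily over 7 days (3 arrays) or 28 days (3 arrays). Their controls spent the same time in such tubes with room air, over 7 days (3 arrays) or 28 days (3 arrays). Blood was drawn from the heart with heparin and the white cells were isolated in CPT tubes, so every sample is a mixture of cell types. The labels do not say that each array is a separate animal, so p-values measure only the spread between these arrays.

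Natural killer (NK) cells are lymphocytes that kill infected or transformed cells without prior priming. Inhibitory and activating surface receptors, many of them lectin-like proteins of the Klr family in rodents, decide whether an NK cell attacks. NK cells and cytotoxic T cells share the means of killing, perforin and the granzymes, which are released from granules onto the target cell. Formaldehyde reacts with the lining of the nose on contact, and circulating cells are remote from that site.

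Differences below are exposed minus control on the log2 scale, averaged over both days, with the standard error (SE) from limma on 6 against 6 arrays. Levels are log2 of the deposited normalised intensity, given for replicates 1, 2 and 3 in that order. "Rose" and "fell" mark an adjusted p under 0.05 (Benjamini-Hochberg over all probe sets tested).

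The samples were checked against markers of blood cells, by where each marker's mean stood among all probe sets. Of 21 T cell markers 20 lay in the top 25%, as did 14 of 19 B cell, 18 of 20 NK cell, 13 of 29 monocyte and 4 of 23 neutrophil markers. Platelet markers had a median percentile of 98.7 and red cell and heme genes one of 95.9, so RNA of these cells was also present, while 1 of 14 endothelial and 0 of 15 heart muscle markers lay in the top 25%. Array medians ran from 174.75 to 180.6 intensity units at 7 days and from 113.4 to 119.4 at 28 days, so levels are not compared between the days. At 7 days they lay apart by exposure, from 174.75 to 176.4 on control and from 179.2 to 180.6 on exposed arrays. At 28 days they overlapped, from 113.4 to 119.4 on control and from 113.8 to 118.6 on exposed arrays. The neutrophil genes S100a9, Cxcr2 and Csf3r were highest on control replicate 2 at both days, and counts are therefore also given without that pair of arrays.

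In exposed blood 13 of 20 NK cell genes and 9 of 19 cytotoxic genes rose, while fibronectin, 5 of 25 red cell and heme genes, 6 of 29 immediate early genes and 8 of 17 genes of resting lymphocytes fell. Of 21910 probe sets tested 999 passed the threshold (4.56%), 455 higher (2.08%) and 544 lower (2.48%). Most differences were small, with 173 of the 999 reaching 1.5-fold and 16 reaching 2-fold. Among the 999 there were 668 probe sets with 1 gene symbol, 322 higher and 346 lower. Without control replicate 2 of both days 654 passed, 225 higher and 429 lower. With each array centred on its median 849 passed, 328 higher and 521 lower. The balance turned with array quality weights (1060 higher and 923 lower), with 4 group means (824 and 711), with all 24 arrays in 1 fit (946 and 864) and without exposed replicate 2 at 28 days (927 and 617). With 1 array left out the count ran from 350, without exposed replicate 1 at 7 days, to 1544, without exposed replicate 2 at 28 days.

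Among probe sets with 1 gene symbol the largest rise was that of Kir3dl1, a killer cell immunoglobulin-like receptor. It had levels of 7.72, 7.81 and 7.65 in exposed and 6.70, 6.56 and 6.71 in control blood at 7 days. At 28 days its levels were 7.32, 7.65 and 8.03 in exposed and 5.40, 6.50 and 6.12 in control blood. Exposed and control arrays did not overlap at either day, and the difference was 1.37 ± 0.18 (2.58-fold, limma adjusted p = 0.0037). The control level of 5.40 lay under log2 5.96, the level a probe set's mean had to reach to be tested.

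Klrg1, an inhibitory receptor of mature NK and effector T cells that binds cadherins, had the smallest adjusted p among the 12 largest rises. It had levels of 10.16, 9.99 and 10.20 in exposed and 9.44, 8.98 and 9.09 in control blood at 7 days. The 28 day levels were 8.85, 9.19 and 9.40 in exposed and 8.06, 8.24 and 8.17 in control blood. Every exposed array was above every control array of its day, with a difference of 0.97 ± 0.10 (limma adjusted p = 0.0016).

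Klrc1 encodes NKG2A, an inhibitory receptor that pairs with CD94. It had levels of 10.36, 10.26 and 10.13 in exposed and 9.45, 9.24 and 9.67 in control blood at 7 days, and 9.62, 9.67 and 10.40 in exposed and 8.40, 8.87 and 8.70 in control blood at 28 days. The groups were apart at both days, and Klrc1 rose by 1.02 ± 0.15. Its paralogs Klrc2 and Klrc3 rose by 0.95 ± 0.16 and 0.88 ± 0.13, and Klrd1, which encodes CD94 itself, by 0.53 ± 0.11.

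Klri1 and Klri2, lectin-like receptors of rodents, rose by 1.08 ± 0.19 and 0.90 ± 0.14, and Klre1, with which they pair, by 0.80 ± 0.12. Probes for closely related members of these families can bind each other's RNA, so they may not be separate measurements. Klrb1a and Klrb1c, of the NKR-P1 family of NK receptors, rose by 0.77 ± 0.11 and 0.38 ± 0.09.

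Ncr1, the activating receptor NKp46 and a marker of NK cells across mammals, rose by 0.84 ± 0.16 (limma adjusted p = 0.013). It had levels of 10.41, 10.27 and 10.47 in exposed and 9.60, 9.36 and 9.82 in control blood at 7 days, and 8.95, 9.23 and 9.99 in exposed and 8.21, 8.78 and 8.51 in control blood at 28 days. Its groups did not overlap either. Nkg7, a membrane protein of cytotoxic granules, rose by 0.47 ± 0.08, Il2rb, the receptor chain shared by interleukin-2 and interleukin-15, by 0.31 ± 0.07, and the kinase Txk by 0.37 ± 0.10.

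Of 20 tested members of the NK cell list 13 rose and 0 fell (16 higher and 0 lower at an unadjusted p under 0.05, limma, which 19.7% of all probe sets had, 10.4% higher and 9.34% lower), and the median difference was 0.47 against 0.02 over all probe sets. Exposed arrays lay above control arrays at both days for 12 of the 20. Over all probe sets the groups were apart the same way at both days for 5.24%, above in 2.49%. Members that did not pass include the activating receptor Klrk1 at 0.18 ± 0.10, Klrb1b at 0.05 ± 0.20 and the Fc receptor Fcgr3a at 0.47 ± 0.16. In bulk samples more cells of a type and more RNA per cell cannot be told apart.

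Grouped by symbol after their values were seen, 11 of 13 tested Klr genes outside the Klra group rose, with a median of 0.80. Of 4 Klra genes, which encode Ly49 receptors, 1 rose (Klra22, 0.43 ± 0.10), and their median was 0.37. The others did not pass, with Klra1 at 0.53 ± 0.16, Klra17 at 0.30 ± 0.21 and Klra2 at −0.43 ± 0.34.

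Without control replicate 2 of both days 10 NK list members passed, with a list median of 0.39, and Klrb1c, Il2rb and Txk did not. With 1 array left out 9 to 14 passed, fewest without exposed replicate 1 at 7 days. The mean of the list on the exposed arrays was 0.50 to 0.59 at 7 days and 0.36 to 0.85 at 28 days, relative to the control mean of the day, against −0.16 to 0.12 and −0.17 to 0.17 on control arrays.

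**Figure D1:**
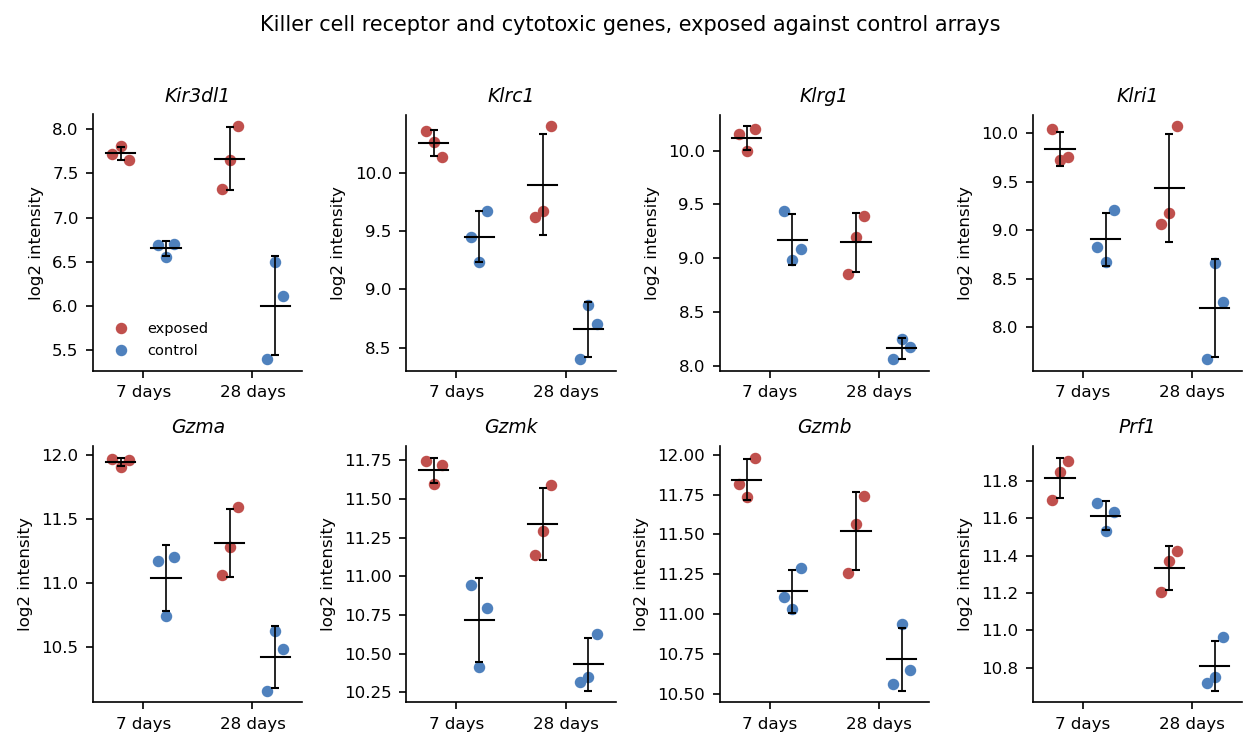
Levels (log2 intensity, vertical axis) of Kir3dl1, Klrc1, Klrg1, Klri1, Gzma, Gzmk, Gzmb and Prf1 on each array, in exposed (red) and control (blue) blood at 7 and 28 days, where horizontal lines are group means and whiskers are 1 SD of 3 arrays. For each of the 8 genes the exposed arrays lie above the control arrays of the same day.

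Genes of granule proteins were also among those that rose. Gzma, granzyme A, had levels of 11.96, 11.90 and 11.96 in exposed and 11.17, 10.74 and 11.20 in control blood at 7 days. At 28 days it had 11.06, 11.28 and 11.59 in exposed and 10.16, 10.63 and 10.48 in control blood. The groups did not overlap, and the difference was 0.91 at 7 days, 0.89 at 28 days and 0.90 ± 0.11 on average (limma adjusted p = 0.0032).

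Gzmk, granzyme K, had levels of 11.75, 11.59 and 11.72 in exposed and 10.94, 10.42 and 10.80 in control blood at 7 days, and 11.14, 11.29 and 11.59 in exposed and 10.31, 10.35 and 10.62 in control blood at 28 days. It rose by 0.94 ± 0.10, again with the groups apart. Gzmb, the granzyme that cleaves caspases, rose by 0.75 ± 0.09 and Gzmm, granzyme M, by 0.46 ± 0.10, while Gzmc had a difference of 0.14 ± 0.10.

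Prf1, perforin, which opens the target membrane to granzymes, rose less, by 0.36 ± 0.08. It had levels of 11.70, 11.85 and 11.90 in exposed and 11.68, 11.53 and 11.63 in control blood at 7 days, and 11.20, 11.37 and 11.43 in exposed and 10.72, 10.75 and 10.96 in control blood at 28 days. The exposed arrays were above the controls at both days, closely so at 7 days. Faslg, the ligand of the death receptor Fas, rose by 0.69 ± 0.12, and Serpinb9, which protects killer cells from their own granzyme B, by 0.65 ± 0.07.

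Of 19 tested cytotoxic genes 9 rose and 0 fell (14 and 0 at an unadjusted p under 0.05), with a median of 0.32, and exposed arrays were above control arrays at both days for 9. The interferon gene Ifng was at 0.17 ± 0.08 and the cathepsin inhibitor Cst7 at 0.38 ± 0.11, neither past the threshold. Without control replicate 2 of both days 6 passed, not Prf1, Gzmm or Ccl5, and with 1 array left out 6 to 10, fewest without exposed replicate 3 at 28 days.

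A few cytokine receptor and chemokine genes of such cells rose. Il12rb2, the signalling chain of the interleukin-12 receptor, rose by 0.89 ± 0.13. Cxcr6, the receptor of Cxcl16, had levels of 10.90, 10.50 and 10.68 in exposed and 9.91, 9.45 and 9.66 in control blood at 7 days, and 9.997, 9.51 and 10.48 in exposed and 8.997, 9.37 and 9.16 in control blood at 28 days. The groups were apart, narrowly at 28 days, and Cxcr6 rose by 0.92 ± 0.14. Xcl1, which attracts cross-presenting dendritic cells, rose by 0.76 ± 0.15, and Ccl5, stored by cytotoxic lymphocytes and platelets, by 0.32 ± 0.07. Cxcr6, Xcl1 and Ccl5 were the 3 members past the threshold among 31 tested chemokine and receptor genes, against 4.56% of all probe sets. Xcl1 and Ccl5 are also among the cytotoxic genes counted above. At an unadjusted p under 0.05 (limma) 5 of the 31 were higher and 4 lower, against 10.4% and 9.34% of all probe sets. Ccl5 did not pass without control replicate 2 of both days. Cacnb4, a calcium channel subunit, was also among the 12 largest rises (0.92 ± 0.17).

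T cell markers did not pass the threshold. Of 21 tested 0 rose and 0 fell by limma (3 had an unadjusted p under 0.05), with a median of −0.02. Cd3e, a chain of the T cell receptor complex, had a difference of −0.02 ± 0.10. In the interferon-gamma list 1 of 14 rose, Gbp2, a guanylate-binding protein (0.38 ± 0.08), and the median was 0.13. At an unadjusted p under 0.05 (limma) 6 of the 14 were higher and 0 lower, against 10.4% and 9.34% of all probe sets. Exposed arrays lay above control arrays at both days for 3 of them, against 2.49% of all.

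Promoter letters of the genes that rose were read from RefSeq sequences of the GRCr8 assembly. Of 22 NK and cytotoxic genes that rose 17 had a promoter there, and 10 of the 17 (58.8%) held TGTGGT, the core letters bound by RUNX factors, on either strand within the 250 bases before the start, against 14.1% of 27457 promoters. Among members of these lists that did not pass, 6 of 14 (42.9%) held it. The T-box letters AGGTGT were in 4 of 17 (23.5%) against 11.4% of all, and the AP-1 letters TGANTCA in 1 of 17. All were searched on both strands, and the RUNX and T-box letters can share bases where they meet. The motifs were chosen with the values known, and a match is a description of letters, not a binding site.

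These 6 promoters are shown because their genes carry the rise and hold the RUNX letters, which stand in capitals as TGTGGT or as the reverse complement ACCACA, 5′ to 3′ on the strand of the gene. Gzma lies at chr2:46485697-46485946, Gzmk at chr2:46582016-46582265, Gzmb at chr15:34462470-34462719, Klrc1 at chr4:164838447-164838696 and Klrc2 at chr4:164819866-164820115, all on the minus strand, and Prf1 at chr20:29788790-29789039 on the plus strand. Gzmb has 3 matches and the others have 1 each.
Gzma: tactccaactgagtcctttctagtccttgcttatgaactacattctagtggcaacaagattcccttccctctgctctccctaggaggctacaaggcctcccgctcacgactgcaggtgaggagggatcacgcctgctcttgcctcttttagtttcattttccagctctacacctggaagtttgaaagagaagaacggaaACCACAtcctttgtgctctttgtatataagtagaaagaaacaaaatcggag
Gzmk: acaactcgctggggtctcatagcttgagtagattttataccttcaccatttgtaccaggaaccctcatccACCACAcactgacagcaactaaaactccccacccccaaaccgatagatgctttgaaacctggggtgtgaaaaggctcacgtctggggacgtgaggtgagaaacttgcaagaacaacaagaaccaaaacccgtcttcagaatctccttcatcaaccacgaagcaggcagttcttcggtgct
Gzmb: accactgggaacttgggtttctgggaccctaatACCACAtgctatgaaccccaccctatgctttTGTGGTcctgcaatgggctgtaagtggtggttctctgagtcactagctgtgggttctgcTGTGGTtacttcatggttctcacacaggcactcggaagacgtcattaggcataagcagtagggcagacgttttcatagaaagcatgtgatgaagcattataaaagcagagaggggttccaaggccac
Prf1: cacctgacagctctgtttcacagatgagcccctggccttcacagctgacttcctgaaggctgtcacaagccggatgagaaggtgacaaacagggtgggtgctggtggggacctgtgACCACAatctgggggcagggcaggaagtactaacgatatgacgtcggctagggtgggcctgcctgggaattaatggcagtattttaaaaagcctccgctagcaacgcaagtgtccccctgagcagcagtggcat
Klrc1: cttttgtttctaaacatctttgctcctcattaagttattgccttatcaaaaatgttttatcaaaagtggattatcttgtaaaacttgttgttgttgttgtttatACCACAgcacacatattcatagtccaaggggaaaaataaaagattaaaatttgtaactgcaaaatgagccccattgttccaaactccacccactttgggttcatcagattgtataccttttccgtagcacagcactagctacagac
Klrc2: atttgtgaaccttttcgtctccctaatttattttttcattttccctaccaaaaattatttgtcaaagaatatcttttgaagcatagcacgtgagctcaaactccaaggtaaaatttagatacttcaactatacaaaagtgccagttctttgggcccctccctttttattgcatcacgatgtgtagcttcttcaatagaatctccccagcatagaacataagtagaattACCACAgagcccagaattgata

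Among probe sets with 1 gene symbol the largest fall was that of Fn1, fibronectin, an adhesive protein of matrix and plasma that monocytes and macrophages also make. It had levels of 9.47, 10.27 and 8.81 in exposed and 11.46, 10.70 and 12.15 in control blood at 7 days. At 28 days its levels were 9.84, 8.44 and 7.43 in exposed and 10.35, 11.89 and 10.56 in control blood. Arrays of 1 group were far apart, but no exposed array reached a control array of its day, and the difference was −2.14 ± 0.41 (4.41-fold lower, limma adjusted p = 0.016).

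Lrp1, an endocytic receptor of macrophages, had levels of 9.09, 9.35 and 8.71 in exposed and 9.98, 9.76 and 10.82 in control blood at 7 days, and 8.37, 7.53 and 7.66 in exposed and 8.89, 9.53 and 9.27 in control blood at 28 days. The groups were apart at both days, and Lrp1 fell by 1.26 ± 0.20. Anpep, the aminopeptidase CD13 of myeloid cells, fell by 1.19 ± 0.31 (limma adjusted p = 0.046).

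In the monocyte and macrophage list 2 of 29 tested members fell, Fn1 and the lysosomal protease Ctsb (−0.30 ± 0.08), and 1 rose, the tetraspanin Cd9 (0.47 ± 0.12). Over all probe sets 2.48% fell and 2.08% rose. At an unadjusted p under 0.05 (limma) 5 members were lower and 2 higher, against 9.34% and 10.4% of all probe sets. Neither Ctsb nor Cd9 passed without control replicate 2 of both days, and with 1 array left out their calls were lost in 9 and 10 of 12 fits. The median of the list was −0.10, and −0.19 to 0.02 with 1 array left out, above 0 only without control replicate 2 at 28 days. Cd14, the co-receptor for endotoxin, was at −0.52 ± 0.26 and Lyz2, lysozyme, at −0.28 ± 0.17, and neither passed.

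Neutrophil genes had a median of −0.62, the lowest of the lists with all 12 arrays, with 1 of 21 past the threshold and 10 lower at an unadjusted p under 0.05. The gene that passed was Ngp, a neutrophilic granule protein, which had levels of 5.68, 6.27 and 7.14 in exposed and 8.14, 8.58 and 7.62 in control blood at 7 days, and 4.92, 5.10 and 4.75 in exposed and 6.07, 6.59 and 6.35 in control blood at 28 days. Its groups were apart at both days (fall of 1.58 ± 0.22, limma adjusted p = 0.0051). All its exposed levels at 28 days, and the 5.68 at 7 days, lay under log2 5.96, the level a probe set's mean had to reach to be tested.

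Cxcr2, a chemokine receptor of neutrophils, had a difference of −1.98 ± 0.67 that did not pass (limma adjusted p = 0.11). Its levels were 6.65, 9.20 and 8.10 in exposed and 8.65, 10.70 and 8.40 in control blood at 7 days and 7.30, 5.65 and 5.47 in exposed and 7.83, 11.03 and 7.60 in control blood at 28 days, so control replicate 2 stood well above the other arrays at both. The mean of the neutrophil list was 0.42 on that array at 7 days and 0.86 at 28 days, relative to the control mean, against −0.67 to −0.13 and −1.11 to −0.65 on exposed arrays. Without the pair the median of the list was −0.14, no longer the lowest, as those of the red cell (−0.42) and resting lymphocyte lists (−0.26) were lower. Ngp (−1.40), Fn1 (−2.09), Kir3dl1 (1.47), Klrg1 (0.94) and Foxo1 (−0.61) still passed. The part of these arrays in the other results was not tested beyond the values given without them.

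**Figure D2:**
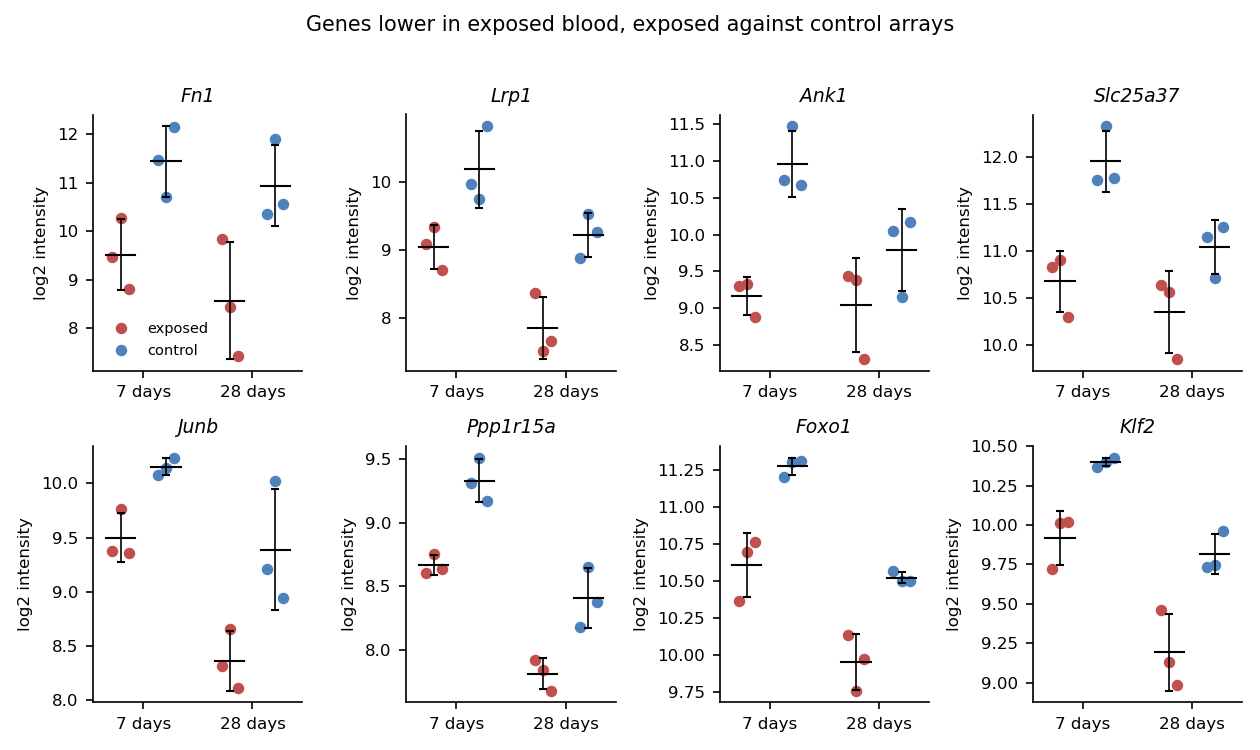
Levels (log2 intensity, vertical axis) of Fn1, Lrp1, Ank1, Slc25a37, Junb, Ppp1r15a, Foxo1 and Klf2 on each array, in exposed (red) and control (blue) blood at 7 and 28 days, where horizontal lines are group means and whiskers are 1 SD of 3 arrays. Exposed arrays lie below control arrays of the same day for each of the 8 genes, except Ank1 at 28 days, where 1 control array lies among the exposed arrays.

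Some genes of the red cell skeleton and of iron handling fell. Ank1, ankyrin of the red cell membrane, had levels of 9.30, 9.32 and 8.87 in exposed and 10.74, 11.48 and 10.67 in control blood at 7 days. At 28 days it had 9.44, 9.38 and 8.30 in exposed and 10.05, 9.16 and 10.17 in control blood, and control replicate 2 lay among the exposed arrays. The difference was −1.80 at 7 days, −0.75 at 28 days and −1.27 ± 0.27 on average (limma adjusted p = 0.022).

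Sptb, beta-spectrin, fell by 1.06 ± 0.25 and Slc4a1, the anion exchanger band 3, by 0.48 ± 0.11. Slc25a37, the mitoferrin that brings iron into mitochondria, fell by 0.99 ± 0.18, and Cpox, an enzyme late in heme synthesis, by 0.38 ± 0.09. Hbb, beta-globin, was at −0.07 ± 0.05 and Alas2, the first enzyme of heme synthesis in red cells, at −0.22 ± 0.07, and neither passed.

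Of 25 tested red cell and heme genes 5 fell and 1 rose (Rhag, the Rh-associated glycoprotein, 0.61 ± 0.15), with a median of −0.62 at 7 days and −0.15 at 28 days. At an unadjusted p under 0.05 (limma) 14 were lower and 1 higher. Exposed arrays lay below control arrays at both days for 1 of the 25, against 2.76% of all probe sets, so for most of the genes that fell the arrays overlapped. With 1 array left out 1 to 12 members fell, fewest without exposed replicate 3 at 28 days, and 7 fell without control replicate 2 of both days. The mean of the list was −0.49 to 0.04 on exposed and −0.38 to 0.25 on control arrays at 28 days, so these overlapped.

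Other large falls were Alox15, a lipoxygenase of reticulocytes and eosinophils (−0.996 ± 0.18), Gpr4, a proton-sensing receptor (−1.02 ± 0.17), the amino acid transporter gene Slc38a5 (−1.05 ± 0.27) and Fhdc1 (−1.18 ± 0.28). For Slc38a5 and Fhdc1, as for Sptb, exposed and control arrays overlapped at 28 days. Alox15 was the gene past the threshold among 10 tested genes of eosinophils, basophils and mast cells, and among 23 of prostaglandin and leukotriene synthesis. Over all probe sets 4.56% passed. At an unadjusted p under 0.05 (limma) 1 of the 10 was higher and 2 lower, and 2 of the 23 were higher and 3 lower.

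Some factors that keep lymphocytes at rest fell. Foxo1, a transcription factor of this programme, had levels of 10.36, 10.70 and 10.76 in exposed and 11.20, 11.30 and 11.31 in control blood at 7 days. At 28 days it had 10.13, 9.76 and 9.97 in exposed and 10.56, 10.50 and 10.50 in control blood. The control arrays lay close together and every exposed array was below them (fall of 0.62 ± 0.08, limma adjusted p = 0.0037).

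Klf2, a Foxo1 target that keeps naive T cells quiescent, had levels of 9.72, 10.02 and 10.02 in exposed and 10.37, 10.40 and 10.43 in control blood at 7 days, and 9.46, 9.13 and 8.98 in exposed and 9.74, 9.75 and 9.96 in control blood at 28 days. Its groups were apart, and it fell by 0.55 ± 0.09. S1pr1, a Klf2 target by which lymphocytes leave lymph nodes, fell by 0.51 ± 0.10, and Bach2, a repressor of effector fate, by 0.47 ± 0.09.

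Tcf7 and Lef1, the factors of naive T cells that act with beta-catenin, fell by 0.34 ± 0.09 and 0.37 ± 0.09. Foxp1, which maintains naive T cells, fell by 0.28 ± 0.07 and the antiproliferative gene Tob1 by 0.46 ± 0.12. Tob1 and Cpq (0.65 ± 0.17) were the named probe sets just inside the threshold (limma adjusted p = 0.0498 for both), while Ralgdsl2 (−0.26 ± 0.07) and Abl1 (−0.26 ± 0.07) were just outside.

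Of 17 tested resting lymphocyte genes 8 fell and 0 rose (14 and 0 at an unadjusted p under 0.05), with a median of −0.24. Exposed arrays lay below control arrays at both days for 6, against 2.76% of all probe sets. Without control replicate 2 of both days 5 passed, not Tcf7, Lef1 or Foxp1, and with 1 array left out 4 to 8, fewest without control replicate 1 at 28 days. The list mean was −0.33 to −0.05 at 7 days and −0.49 to −0.22 at 28 days on exposed arrays, relative to the control mean, while that of T cell markers was 0.02 to 0.18 and −0.24 to 0.07.

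Some immediate early genes, which cells switch on soon after a stimulus, fell as well. Junb, an AP-1 subunit, had levels of 9.38, 9.77 and 9.36 in exposed and 10.08, 10.14 and 10.24 in control blood at 7 days, and 8.32, 8.66 and 8.11 in exposed and 9.21, 10.02 and 8.94 in control blood at 28 days. The groups were apart, with control replicate 2 at 28 days well above the others, and Junb fell by 0.84 ± 0.17 (limma adjusted p = 0.017).

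Ppp1r15a (GADD34), which directs a phosphatase to eIF2-alpha, had levels of 8.60, 8.75 and 8.64 in exposed and 9.31, 9.51 and 9.17 in control blood at 7 days, and 7.92, 7.84 and 7.68 in exposed and 8.18, 8.65 and 8.38 in control blood at 28 days. It fell by 0.63 ± 0.09, with the groups apart. Zfp36 (tristetraprolin), which promotes decay of cytokine mRNA, fell by 0.93 ± 0.19, Nr4a1, a nuclear receptor induced by antigen, by 0.77 ± 0.20, Jund, another AP-1 subunit, by 0.52 ± 0.10, and Ier5 by 0.33 ± 0.08. Arrays overlapped at 28 days for Zfp36 and at 7 days for Nr4a1.

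Of 29 tested immediate early genes 6 fell and 0 rose (12 and 0 at an unadjusted p under 0.05), with a median of −0.26 that was −0.16 without control replicate 2 of both days, when 7 fell. With 1 array left out 3 to 7 fell, fewest without exposed replicate 1 at 7 days. Per1, a clock gene that glucocorticoids induce, fell by 0.61 ± 0.10, as the gene past the threshold among 17 clock and 23 glucocorticoid response genes. In each list 1 gene is near the 4.56% of all probe sets that passed. At an unadjusted p under 0.05 (limma) 0 clock genes were higher and 5 lower, and 3 glucocorticoid response genes were higher and 6 lower. Over all probe sets 10.4% were higher and 9.34% lower at that p.

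Of the promoters of the 6 immediate early genes that fell, 2 (33.3%) held the cAMP response element TGACGTCA, a palindrome, which 1.70% of all promoters held. Immediate early genes that did not pass were not searched, so whether this share is particular to those that fell was not tested. The 2 promoters are shown with that element in capitals. Jund lies at chr16:18769772-18770021 and Ppp1r15a at chr1:105139597-105139846, both on the minus strand of GRCr8 (RefSeq). The AP-1 letters and a serum response element were in 0 of these 6 windows of 250 bases.
Jund: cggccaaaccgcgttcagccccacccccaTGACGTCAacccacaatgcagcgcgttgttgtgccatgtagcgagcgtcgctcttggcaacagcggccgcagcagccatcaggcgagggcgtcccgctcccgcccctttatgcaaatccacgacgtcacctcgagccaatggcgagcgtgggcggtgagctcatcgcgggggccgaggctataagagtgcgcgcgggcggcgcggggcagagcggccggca
Ppp1r15a: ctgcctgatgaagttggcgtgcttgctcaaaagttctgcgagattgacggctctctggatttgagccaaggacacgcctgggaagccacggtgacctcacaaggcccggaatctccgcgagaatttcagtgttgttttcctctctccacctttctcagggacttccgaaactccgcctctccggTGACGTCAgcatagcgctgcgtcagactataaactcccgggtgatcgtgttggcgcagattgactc

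**Figure D3:**
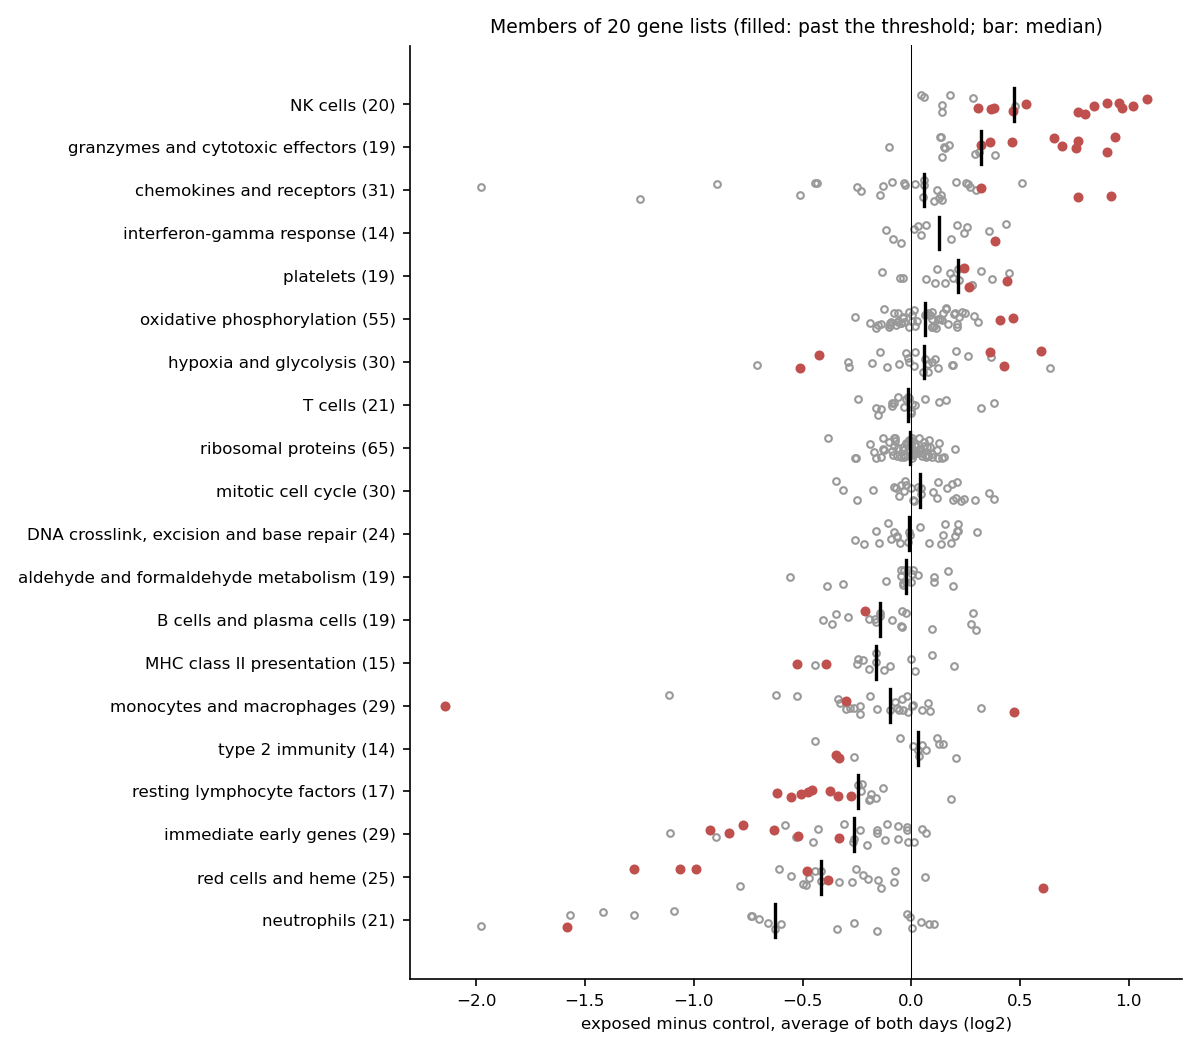
Exposed minus control differences averaged over both days (log2, horizontal axis) for the tested members of 20 gene lists (rows, number of members in brackets), where filled points passed the threshold, open points did not and the bar is the median. NK cell members have the highest median of the lists (0.47), and neutrophil members the lowest (−0.62) with 1 filled point, a median that was −0.14 and not the lowest without control replicate 2 of both days.

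Some platelet genes rose. P2ry12, the ADP receptor of platelets, rose by 0.44 ± 0.10, F2rl2, a thrombin receptor, by 0.27 ± 0.07, and Pdgfb, a growth factor of platelet granules, by 0.24 ± 0.06. They were 3 of 19 tested members, and the list's median was −0.01 at 7 days and 0.43 at 28 days. Without control replicate 2 of both days 1 passed, not F2rl2 or Pdgfb, and with 1 array left out 0 to 3 did.

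Of 19 B cell genes 1 fell (Vpreb3, −0.21 ± 0.05), and at an unadjusted p under 0.05 (limma) 2 were higher and 5 lower. Of 15 class II presentation genes 2 fell, RT1-Bb, a class II beta chain, by 0.53 ± 0.13 and Ciita, the regulator of class II genes, by 0.39 ± 0.10. At an unadjusted p under 0.05 (limma) 0 class II genes were higher and 4 lower. Over all probe sets 2.48% fell, and at that unadjusted p 10.4% were higher and 9.34% lower. Stat6, which relays interleukin-4 signals, fell by 0.35 ± 0.07 and Il4r, a chain of its receptor, by 0.33 ± 0.09, as the members past the threshold of 14 type 2 genes. The NF-kappaB subunits Rela and Nfkb2 fell by 0.37 ± 0.08 and 0.37 ± 0.09 among 23 inflammatory genes. None of Vpreb3, RT1-Bb, Ciita, Stat6, Il4r, Rela and Nfkb2 passed without control replicate 2 of both days.

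No tested gene that removes formaldehyde passed. Of 19 tested genes of aldehyde and formaldehyde metabolism 0 passed by limma (3 had an unadjusted p under 0.05). Aldh2, the mitochondrial dehydrogenase that oxidises aldehydes, was at −0.39 ± 0.12 (limma adjusted p = 0.091), Esd, which hydrolyses S-formylglutathione, at 0.19 ± 0.10, and catalase, Cat, at −0.31 ± 0.09. By limma 0 of 24 DNA repair genes, 19 p53 targets, 30 mitotic genes and 65 ribosomal protein genes passed. An unadjusted p under 0.05, which 19.7% of all probe sets had, was seen for 11 DNA repair genes (7 higher and 4 lower), a larger share, for 3 p53 targets and 6 mitotic genes, near that share, and for 3 ribosomal protein genes, a smaller one.

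**Figure D4:**
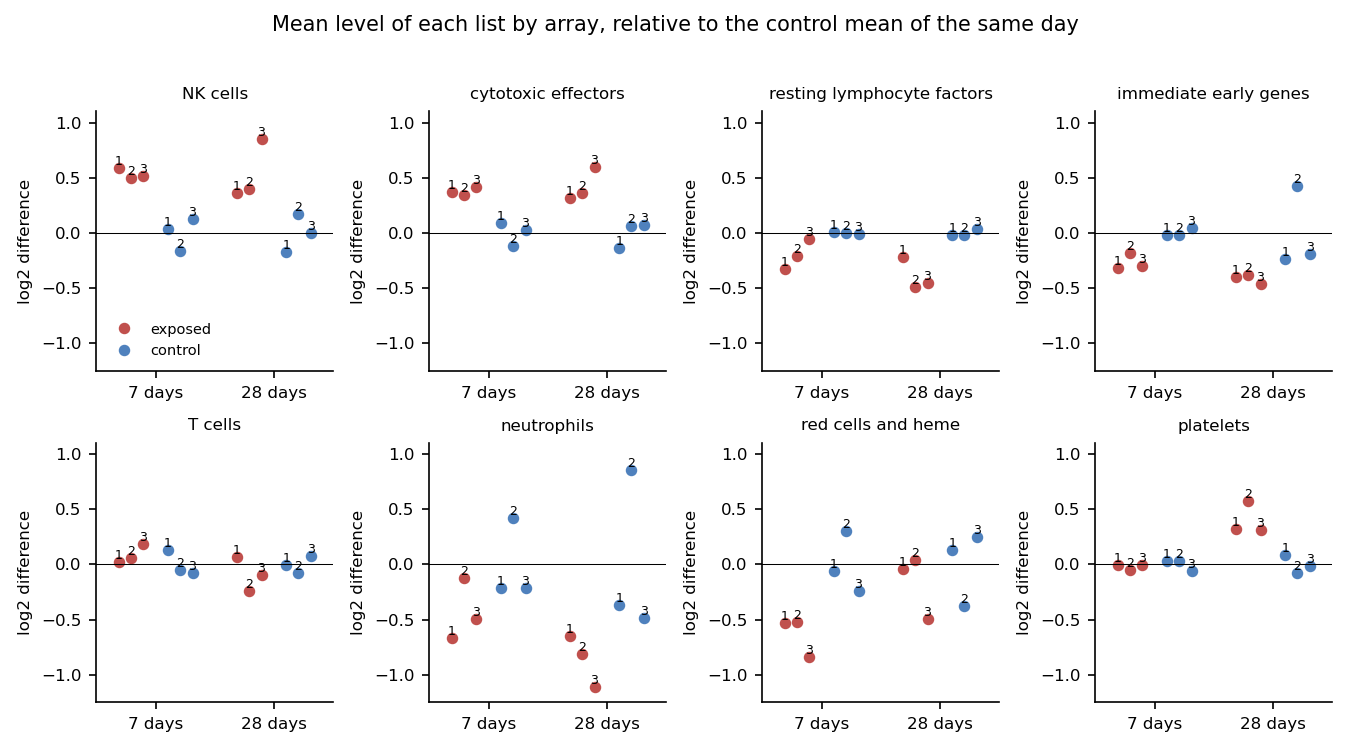
Mean level of 8 gene lists on each of the 12 arrays, relative to the control mean of the same day (log2 difference, vertical axis), in exposed (red) and control (blue) blood at 7 and 28 days, with replicate numbers beside the points. The NK and cytotoxic means are higher on all 6 exposed arrays than on the controls of their day, and control replicate 2 is the highest in the neutrophil list at both days.

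Whether the effect differed between the days was tested by subtracting the 7 day effect from the 28 day effect. By limma 0 of 21910 probe sets passed, 2528 had an unadjusted p under 0.05, and a miss does not show that the effects were equal. All 999 probe sets of the common effect had the same sign at both days, which that test favours, and 161 of them had an unadjusted p under 0.05 for the difference. The smallest p were those of Psd3, at −0.29 at 7 days and 1.29 at 28 days (limma adjusted p = 0.061), and Mpig6b, a receptor of megakaryocytes and platelets, at −0.40 and 0.75 (limma adjusted p = 0.12).

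Each day was also fitted alone. At 7 days 463 probe sets passed (2.11%), with 9 NK and 6 cytotoxic genes among them. Of the 463, 380 (82.1%) had the same sign at 28 days, in arrays that share no sample with the first, against 55.4% of all probe sets. The same sign with an unadjusted p under 0.05 at 28 days was seen for 181 (39.1%), against 9.22% of all. At 28 days alone 1 probe set passed (0.00456%), which has no gene symbol, and 2788 had an unadjusted p under 0.05. The SE of the next values are from the fit of group means to the blood arrays of both days, not from a day fitted alone. In that fit Klrg1 stood at 0.95 ± 0.14 at 7 days and 0.99 ± 0.14 at 28 days, and Foxo1 at −0.67 ± 0.12 and −0.57 ± 0.12.

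**Figure D5:**
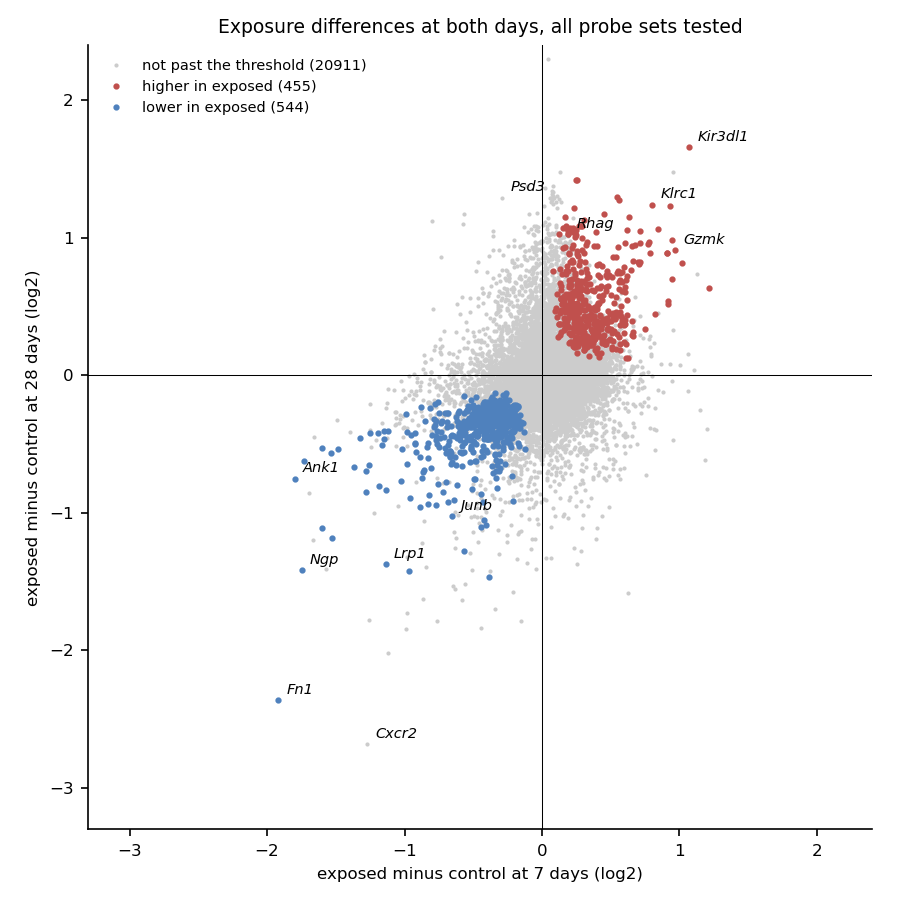
Exposed minus control difference at 28 days (vertical axis) against that at 7 days (horizontal axis), both log2, for the 21910 probe sets tested, with those past the threshold of the common effect in red (455 higher) and blue (544 lower) and the rest in grey. Kir3dl1 and Fn1 lie at opposite ends, and Cxcr2 is grey although it is low at both days.

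Blood was set against nasal epithelium by the difference of the day-averaged effects on all 24 arrays, over 20096 probe sets kept in both tissues. It passed for 3339 (16.6%), with 1740 (8.66%) more positive and 1599 (7.96%) more negative in blood. Of 932 probe sets past the threshold in blood that could be tested here, 618 passed, which their choice by the blood arrays, used again in this test, favours. In the cytotoxic list 11 of 16 tested genes were more positive in blood, and in the NK list 6 of 9. Among the tested genes of these lists the 7 cytotoxic and 4 NK genes that rose in blood had nasal differences from −0.67 to −0.02 and from −0.32 to −0.05. In the resting lymphocyte list 5 of 16 were more negative in blood and 1 more positive. Fn1 had a nasal difference of 0.09 ± 0.33 and a limma adjusted p = 0.0033 for the difference between tissues.

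Promoter composition, which the comparison did not use, was described without a test. The median GC content of the 250 bases before the start was 58.4% for genes that rose (260 promoters), 63.6% for genes that fell (295) and 59.2% for genes that did not pass (9703). Median gene spans in RefSeq were 28.7 kb for genes that rose, 28.3 kb for genes that fell and 18.6 kb for genes that did not pass. The genes compared also differed in brightness, with median levels of 9.53, 9.30 and 8.10 in that order. They were not matched for level, so the part of brightness in these differences was not tested.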

How the data were processed

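Biotin-labelled RNA was hybridised to Affymetrix arrays, per the labels. The authors deposited 1 normalised intensity per probe set and array, on a linear scale as the values show. Per the submitters' processing notes the software was Partek. How background was corrected and arrays normalised is not stated in the sources used here, nor is the version. In all 29214 probe sets were listed, with 0 sample columns unassigned. The platform annotation gave 1 symbol for 15310 probe sets, several for 323 and none for 13581, and 15279 matched RefSeq by identifier.

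The planned test had taken the deposited values to be on the log2 scale already. They were linear, so they were log2 transformed, and they were not normalised again. A probe set was kept if its mean reached percentile 25 of the blood arrays (log2 5.96). In R 4.3.3, limma 3.58.1 (lmFit, eBayes) was fitted to the 12 blood arrays with day and exposure as terms (9 residual degrees of freedom). Tests were two-sided with Benjamini-Hochberg adjustment. The difference between days used 4 group means, and that between tissues 8 group means on 24 arrays. The fits were tested on simulated data. Precision is limited by the 3 arrays in each group. Same-numbered exposed and control arrays of a day had residual correlations of −0.348 to 0.070, so the numbers were not taken as pairs.

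The members and the 41 gene lists (1136 symbols, each gene by its brightest probe set) were chosen with earlier results of these data known. Named genes were, among probe sets with 1 symbol, the 12 largest rises and 12 largest falls past the threshold, up to 4 members of each list with the largest moderated statistic, Esd, Aldh2 and Cat, the 4 largest differences each way between tissues, and the 2 of smallest p between days. Other list members, cell markers, Klr and Gzm genes and genes at the threshold were named after their values were seen. Alternatives varied the filter, scaling, prior, array weights, replicate block, terms, threshold, probe sets of a gene and arrays, and the fit without control replicate 2 of both days was added after seeing the data. Figures were drawn with matplotlib 3.10.9 in Python 3.11.15.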

Additional observations from a re-analysis of the deposited data

Results flagged for a closer look

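The exposure effect of these genes differed between the tissues (limma on all 24 arrays, adjusted p under 0.05), given as blood minus nose on the log2 scale. Genes named for a large blood effect were chosen on arrays that enter this test. More positive in blood were Serpinb10 (2.17), Cxcr6 (1.63), Scel (1.46), Jchain (1.45), Il12rb2 (1.34), Klrc3 (1.31) and Klrg1 (1.02). Serpinb10, Scel and Jchain did not pass in blood, and their nasal differences were −1.72 ± 0.33, −1.09 ± 0.25 and −1.15 ± 0.26. Klrg1 had a nasal difference of −0.05 ± 0.10 and Cxcr6 one of −0.71 ± 0.15.

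More negative in blood were Fn1 (−2.23), Or2l13 (−1.96), Dmtn (−1.95), Or12j3 (−1.87), Fhdc1 (−1.40), Ank1 (−1.23), Sptb (−1.12), Lrp1 (−1.07), Slc25a37 (−1.01) and Gpr4 (−0.78). The olfactory receptor genes Or2l13 and Or12j3 had nasal differences of 1.82 ± 0.22 and 1.94 ± 0.22 and did not pass in blood (−0.14 ± 0.08 and 0.06 ± 0.07). Dmtn, a protein of the red cell skeleton, was at 1.26 ± 0.25 in nose and −0.69 ± 0.23 in blood, where it did not pass. The nasal differences of Ank1, Sptb and Slc25a37 were −0.04 ± 0.19, 0.05 ± 0.17 and 0.02 ± 0.15. Groups held 3 arrays, too few to test for single outlying arrays.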

How the results depend on the processing

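No gene that passed and was followed by name changed direction under the alternatives run. Direction was not followed for the other probe sets, Klra22 and Cpq among them, and the balance of higher and lower turned under some alternatives. The 999 probe sets of the common effect became 1983 with array quality weights, 1961 at an adjusted p under 0.1, 1810 with all 24 arrays in 1 fit, 1535 with 4 group means, 215 at an unadjusted p under 0.005 with 1.5-fold, 463 with the 7 day arrays, 1 with the 28 day arrays and 1 without the day term. They were 350 to 1544 with 1 array left out (among 7 day arrays, leaving out exposed 1 gave 350, exposed 3 gave 602 and control 3 gave 502, and among 28 day arrays exposed 3 gave 395, exposed 2 gave 1544, control 1 gave 518 and control 3 gave 511) and 654 without control replicate 2 of both days. With a replicate block, although the numbers were not taken as pairs, 293 passed, among them 10 NK and 8 cytotoxic genes. Without a filter, with the median filter, quantile normalization, centring, a trended prior or gene means the count stayed between 814 and 1220. For the difference between days the count of 0 became 1 with the median filter, centring, a trended prior, gene means or an adjusted p under 0.1, 2 with array weights, 145 with all 24 arrays, 397 at an unadjusted p under 0.005 with 1.5-fold, and 0 to 5 with 1 array left out. The difference between tissues had 1180 at an unadjusted p under 0.005 with 1.5-fold and 2480 to 4064 with 1 array left out. The cause of these changes was not tested. Of the genes followed by name, 87, which is every one of them that passed, no longer passed without the day term or with the 28 day arrays. The call was lost for 49 with the 7 day arrays, 47 with the replicate block, 31 without control replicate 2 of both days and 11 with centring. With 3 arrays a group and probe sets under the filter not tested, small differences of dim genes are not seen.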

Other observations

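In these other lists 0 to 5 genes passed each, against 4.56% of all probe sets. Ndufa4 and Ndufs4, linked to the respiratory chain, rose by 0.47 ± 0.08 and 0.41 ± 0.07, 2 of 55 oxidative phosphorylation genes. In the hypoxia and glycolysis list of 30, the glycolytic enzymes Tpi1 (0.43 ± 0.10) and Pgk1 (0.36 ± 0.07) and the collagen hydroxylase P4ha1 (0.60 ± 0.13) rose, while the hexokinases Hk1 and Hk2 fell by 0.51 ± 0.10 and 0.43 ± 0.08. Dnajc3, a chaperone of the endoplasmic reticulum, rose by 0.47 ± 0.09 and the ubiquitin ligase Syvn1 fell by 0.33 ± 0.08, among 22 unfolded protein response genes. Hspd1, the mitochondrial chaperonin, rose by 0.34 ± 0.08, 1 of 19 chaperones, and Gsr, glutathione reductase, by 0.42 ± 0.11, 1 of 31 NRF2 response genes. Without control replicate 2 of both days Pgk1, P4ha1, Syvn1, Hspd1 and Gsr did not pass. With 1 array left out Gsr lost its call in 11 of 12 fits, Syvn1 in 10, Tpi1 in 8 and Hspd1 in 6.

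Mtrr, which keeps methionine synthase active, rose by 0.30 ± 0.06, 1 of 22 folate genes. Mov10 and Tnrc6b, which act in RNA silencing, fell by 0.51 ± 0.12 and 0.23 ± 0.06, 2 of 15 microRNA pathway genes, and Nras and Ccnd2 rose by 0.35 ± 0.07 and 0.30 ± 0.07, 2 of 22 reported let-7 targets. Stat2, which relays type I interferon, fell by 0.37 ± 0.09, 1 of 35. Tfb1m, a mitochondrial rRNA methyltransferase, rose by 0.36 ± 0.09, 1 of 16. None of Mov10, Tnrc6b, Nras, Ccnd2, Stat2 and Tfb1m passed without control replicate 2 of both days. By limma 0 passed among 17 genes of class I presentation, 14 of regulatory T cells and checkpoints, 18 of stem and progenitor cells, 24 of apoptosis, 20 of complement and clotting, 13 of endothelium and 14 of heart muscle. An unadjusted p under 0.05, which 19.7% of all probe sets had, was seen for 5 of class I presentation, 3 of regulatory T cells, 8 of stem and progenitor cells, 2 of apoptosis, 6 of complement and clotting, 2 of endothelium and 1 of heart muscle. The share was larger than over all probe sets for stem and progenitor cells, complement and clotting, and class I presentation, and smaller for apoptosis, endothelium and heart muscle.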
